A study of Felis catus with 2 samples.

Results

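The genes described here encode enzymes that remove superoxide, peroxides and reactive aldehydes, or that make and use glutathione. They were chosen by name from the deposited table, as loci with a single gene name of the superoxide dismutase, catalase, glutathione peroxidase, peroxiredoxin, thioredoxin, glutathione transferase, NQO, heme oxygenase and ALDH3 families, with the enzymes of glutathione synthesis and reduction, SRXN1 and TKT. The rule found 52 of 32065 loci. It chooses by level only between rows that repeat a name, and no name was repeated. Thioredoxin-domain genes and TXNIP were taken in by their name alone.

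Polyadenylated RNA was profiled in 2 libraries, 1 from a cat with primary congenital glaucoma (affected) and 1 from an unrelated healthy cat (normal), both 2 months old. The affected cats of the study come from a colony with Siamese founders in which the disease is recessive and is traced to a 4-base insertion in LTBP2, but the sample labels give the disease state and not the genotype of each library. The dissected piece held the iridocorneal angle, through which aqueous humor leaves the eye, and the ciliary body, together with the sclera and trabecular meshwork next to them. Differences between the cats have no replicate check, because each condition is 1 library, so no p-value was calculated and all values describe these libraries.

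Superoxide dismutases convert superoxide to hydrogen peroxide, which catalase, glutathione peroxidases and peroxiredoxins then reduce to water. Glutathione is made in consecutive steps by glutamate-cysteine ligase and glutathione synthetase and is kept reduced by glutathione reductase, while thioredoxins are kept reduced by thioredoxin reductases. In the anterior eye these systems act in a tissue that is exposed to light and, in the aqueous humor, to hydrogen peroxide, and the cornea holds some of these enzymes at the abundance of structural proteins.

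Most of these genes stood at similar levels in both cats, and 5 stood apart. GPX3, a secreted glutathione peroxidase, was the one member that the affected cat held at a level at least 2-fold higher, while ALDH3A1, GSTM3, GPX8 and TKT were at least 2-fold lower. Differences are given as log2 ratios, log2 of (affected + 1) over (normal + 1) in FPKM, a scale that understates the change of low loci. Of the 52 genes, 48 reached 1 FPKM in at least 1 library. The single gene at least 2-fold higher makes 2.08% of these 48, against 8.14% of the 16676 loci that reached the same minimum. The 4 genes at least 2-fold lower make 8.33%, against 8.75% of those loci. The share of higher genes was thus under that of all loci. The share of lower genes was close to that of all loci here, but the latter depends on the settings: with a pseudocount of 0.1 FPKM the same 1 and 4 members were counted, while 11.9% of all loci were higher and 13.0% lower. By a mean of at least 5 FPKM, 44 members gave the same counts of 1 and 4, against 7.62% higher and 6.46% lower over all loci. At a 4-fold threshold no member was higher and 1, ALDH3A1, was lower, where the background was 1.68% and 1.79%.

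The median log2 ratio of the 48 genes was 0.015, against −0.0047 over all loci, with 25 genes above 0 and 23 below. A total of 31 genes, or 64.6%, lay within 0.5 of 0 on the log2 scale. The share was 57.7% over all loci and 63.4% over loci that averaged at least 5 FPKM, so the members were about as close to 0 as other loci of moderate level.

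**Figure D1:**
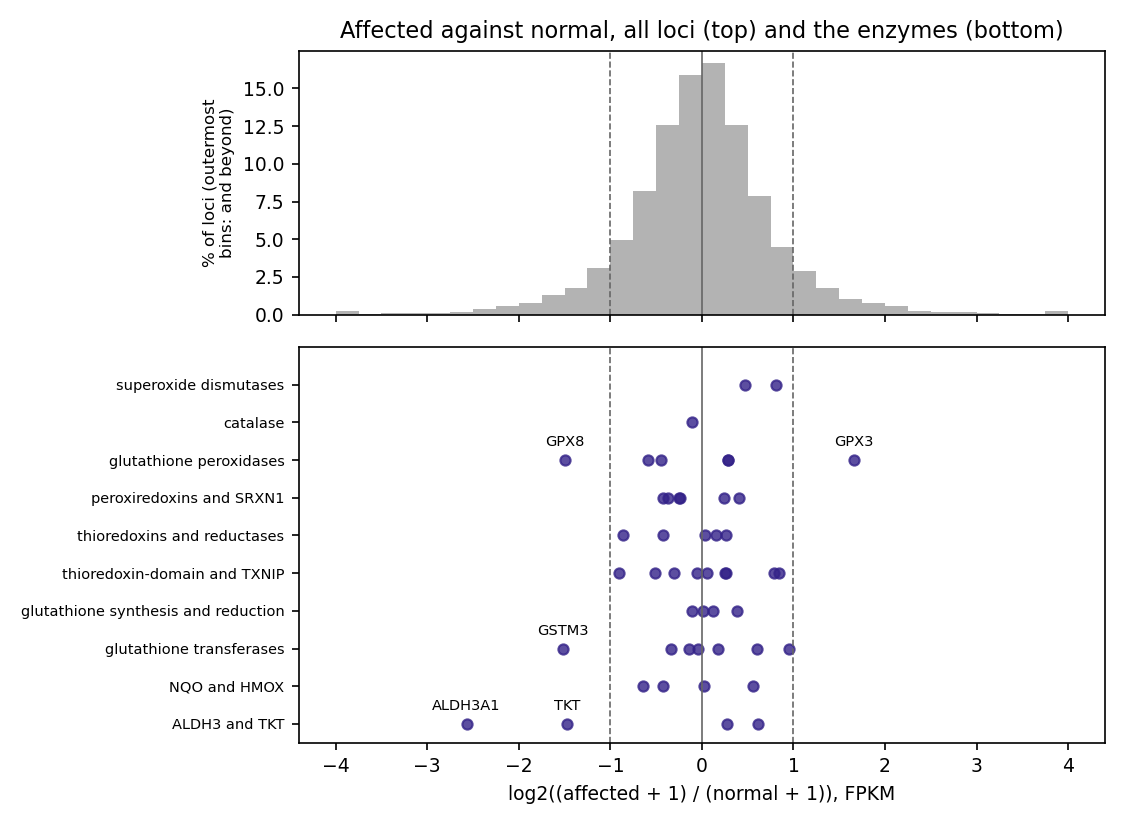
Log2 ratios, affected against normal. The top panel shows the share of all 16676 loci per bin in percent, and the bottom panel shows each of the 48 genes as a point in the row of its family. The dashed lines mark a 2-fold difference, and 5 named genes lie beyond them, with GPX3 on the right and ALDH3A1, GSTM3, GPX8 and TKT on the left.

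The members were abundant transcripts. FPKM are scaled by transcript length, so levels of different genes can be set side by side. Among the 52 genes 13 reached 100 FPKM in the normal library against 12 in the affected one. The 90th percentile of the loci with at least 1 FPKM was reached by 20 genes in the normal library against 19 in the affected one. The median over the 52 genes was 29.9 FPKM in the normal cat against 37.5 in the affected cat, whereas the median over the 16676 loci was 8.46 and 8.37 FPKM. The 4 genes that did not reach 1 FPKM were GPX5, GSTM4, GSTO2 and TXNDC2.

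Low values fall on steps that correspond to single fragments, and these steps show the depth. At unnamed loci between 300 and 3000 bases long, 95.1% of the 3051 low values in the normal and 95.5% of the 2746 in the affected library lay within 0.03 of a whole fragment. The values had been scaled to about 71100000 fragments in the normal library against 67500000 in the affected one. On 1 kilobase of effective length, 1 FPKM thus stood for 71.1 fragments in the normal library against 67.5 in the affected one, a counting error of 11.9% and 12.2%. At 10 FPKM the same errors were 3.75% and 3.85%. These errors cover counting alone, not the variation between cats, and transcript lengths are not in the table. They also take the scaled totals as the fragments sequenced, which the sources used here do not give.

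**Figure D2:**
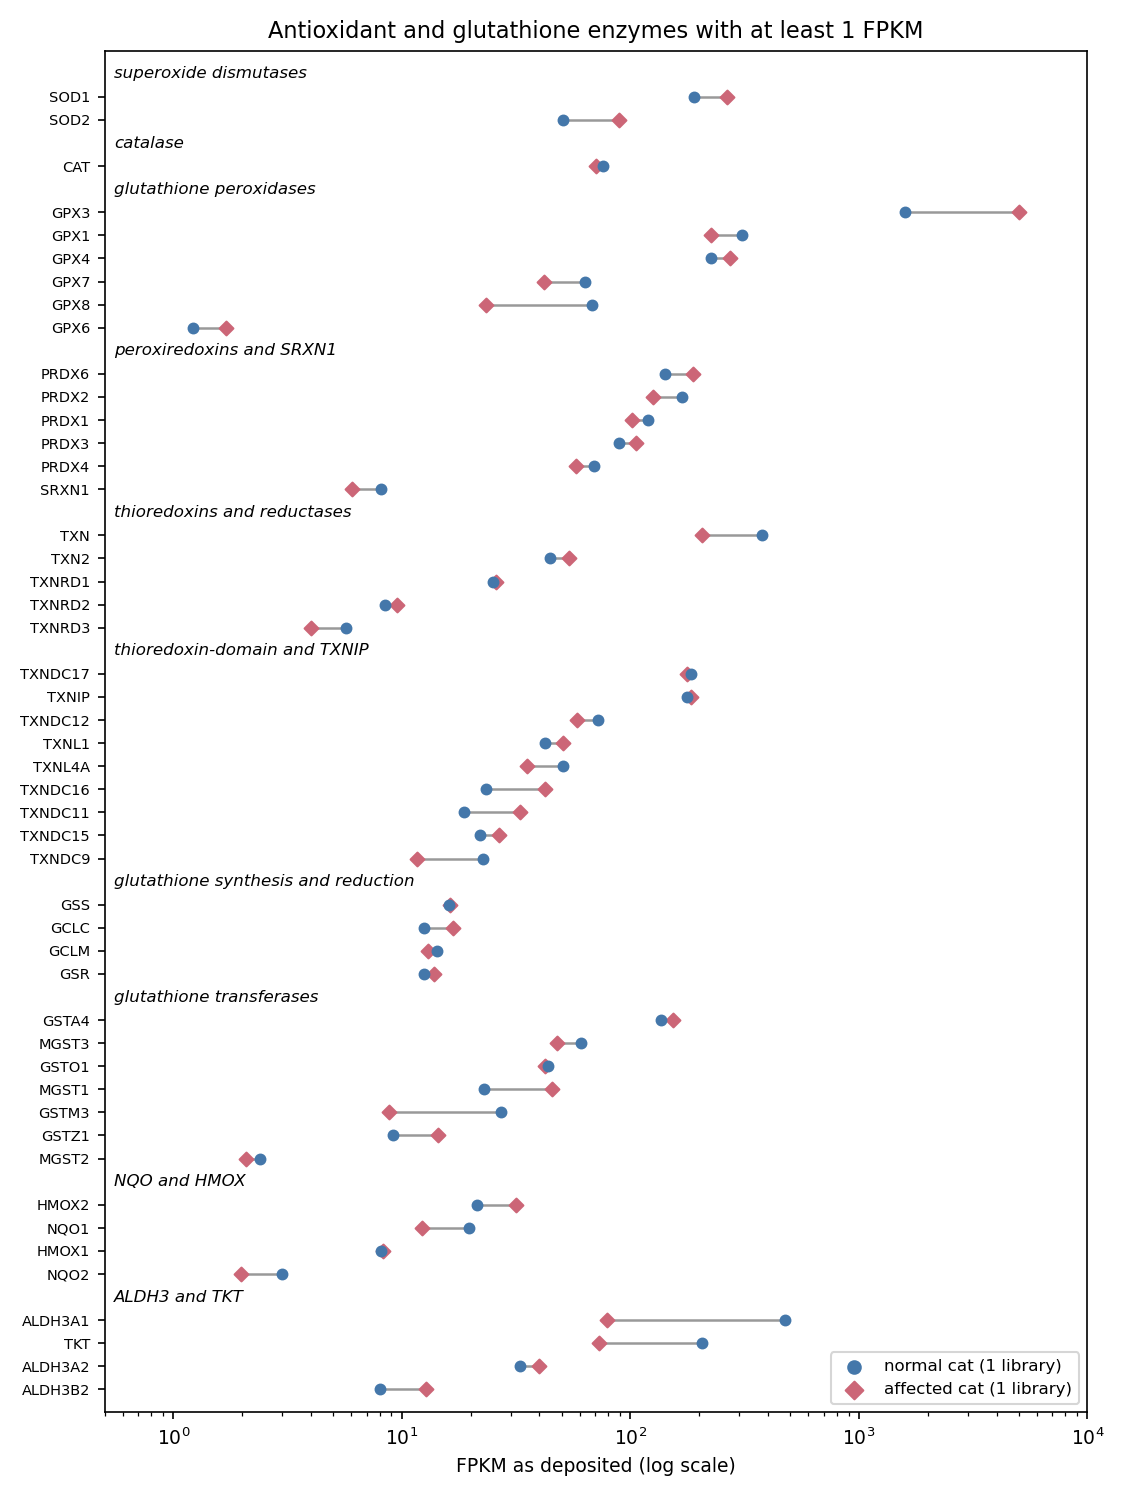
FPKM of the 48 genes that reached 1 FPKM, on a log axis, ordered by family and by level within a family. Circles stand for the normal and diamonds for the affected library, 1 library each, and the line joins both values of a gene. GPX3 has the highest value in both libraries, and the widest gap belongs to ALDH3A1.

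Superoxide dismutases were both higher in the affected library, although neither by 2-fold. SOD1, the cytosolic copper and zinc enzyme, had 190.2 FPKM in the normal cat against 264.4 in the affected cat, a log2 ratio of 0.47. SOD2, the manganese enzyme of mitochondria, had 50.6 and 89.4 FPKM, a log2 ratio of 0.81. SOD1 was thus 3.76 times as abundant as SOD2 in the normal and 2.96 times in the affected library. Catalase, the peroxisomal enzyme that splits hydrogen peroxide, was nearly level, with 76.0 FPKM in the normal cat against 70.5 in the affected cat.

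The glutathione peroxidases held the most abundant member and log2 ratios on both sides of 0. GPX3, which is released into extracellular fluids, had 1583 FPKM in the normal cat against 5009 in the affected cat. It ranked 40th of all loci in the normal library against 12th in the affected one, and it was 3.16-fold higher in the affected cat (log2 ratio 1.66). The ratio exceeded 97.2% of the 16676 loci. Only 31 loci have a mean within 2-fold of that of GPX3. Of these 25.8% were at least 2-fold higher and none was at least 2-fold lower, and the ratio of GPX3 exceeded 87.1% of them. The locus lies on chromosome A1 of felCat5 from 195919542 to 195928266.

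The intracellular glutathione peroxidases did not share this pattern. GPX1, the general cytosolic form, had 309.0 FPKM in the normal cat against 226.0 in the affected cat (log2 ratio −0.45). GPX4, which reduces lipid peroxides within membranes, had 224.2 and 273.1 FPKM (log2 ratio 0.28). The order of these genes was therefore turned around, with GPX4 at 0.726 times GPX1 in the normal and 1.21 times in the affected library. The GPX4 value comes from a locus whose 247793-base span is also given for 14 other rows, which include STK11, CNN2 and MED16.

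GPX7 and GPX8 are peroxidases of the endoplasmic reticulum that use cysteine in place of selenocysteine, and both were lower in the affected cat. GPX8 had 68.1 FPKM in the normal cat against 23.4 in the affected cat, which is 2.91-fold lower (log2 ratio −1.50). Its locus lies on chromosome A1 from 124145353 to 124195111, and the same span is given for 3 other rows, among them CDC20B at 0.0184 FPKM in the normal library and 0 in the affected one. GPX7 had 63.5 and 42.0 FPKM, a log2 ratio of −0.58. Both genes were near each other in level in the normal cat, with GPX7 at 0.932 times GPX8, and at 1.79 times in the affected cat. GPX6 had 1.21 and 1.71 FPKM, and GPX5 was at 0.0107 FPKM in the normal library and listed at 0 in the affected one, both from a single shared span.

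GPX3 alone set the direction of the summed level. The 52 genes summed to 5364 FPKM in the normal cat against 8137 in the affected cat, a ratio of 1.52. GPX3 made 29.5% of the sum in the normal library against 61.6% in the affected one. Without GPX3 the sums were 3781 and 3128 FPKM, a ratio of 0.827, so the direction turned. Without GPX3, ALDH3A1 and TKT they were 3101 and 2976 FPKM, a ratio of 0.96. The 47 genes that stayed within 2-fold or under the minimum summed to 3006 FPKM in the normal cat against 2944 in the affected cat.

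**Figure D3:**
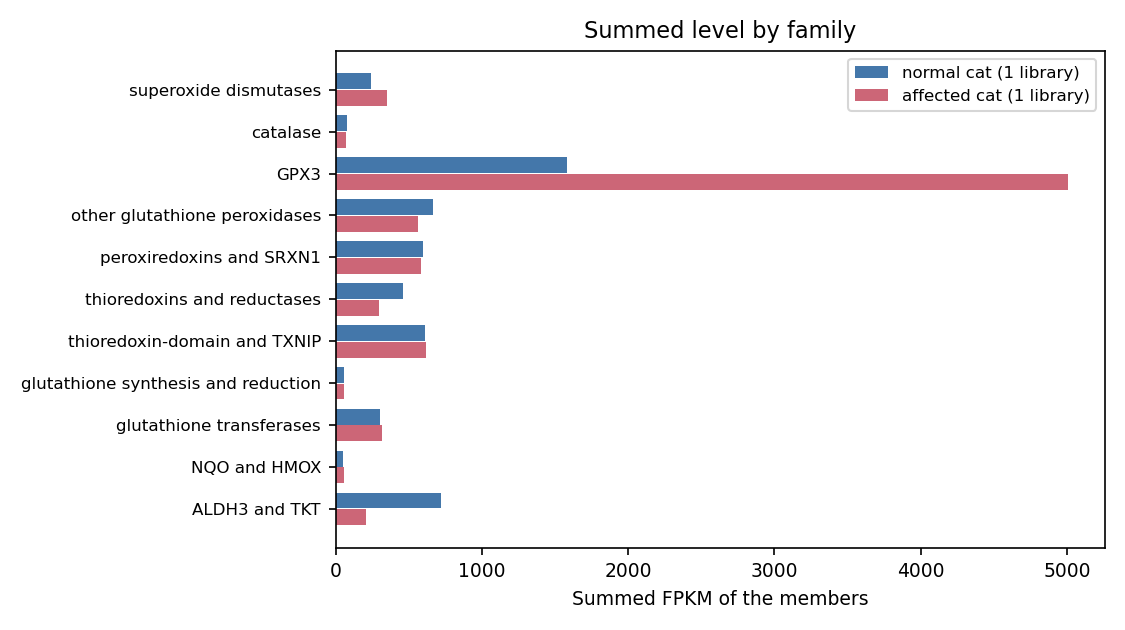
Summed FPKM by family, with GPX3 drawn apart from the other glutathione peroxidases. Bars start at 0 and stand for 1 library each, with the normal cat above the affected cat. GPX3 goes from 1583 to 5009 FPKM, while ALDH3 and TKT together go from 720.9 to 204.8 FPKM and the ratio of sums of the other whole families lies between 0.653 and 1.47.

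Peroxiredoxins, the abundant thiol peroxidases of the cell, stayed within 2-fold without exception among the 5 listed here. PRDX6, which also acts on phospholipids, had 141.3 FPKM in the normal cat against 188.1 in the affected cat. PRDX3, the mitochondrial form, had 89.2 and 106.0 FPKM. These were the higher ones in the affected cat, with log2 ratios of 0.41 and 0.25. PRDX2 had 168.9 and 125.5 FPKM, PRDX1 119.8 and 101.4 FPKM, and PRDX4, the form of the endoplasmic reticulum, 69.2 and 58.0 FPKM. Their log2 ratios were −0.43, −0.24 and −0.25. The sum over the 5 genes was nearly the same in both cats, at 588.3 and 578.9 FPKM. SRXN1, sulfiredoxin, which restores overoxidized peroxiredoxins, was far less abundant, with 8.11 and 6.06 FPKM.

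Thioredoxin itself was lower in the affected cat. TXN, the cytosolic form, had 374.8 FPKM in the normal cat against 206.5 in the affected cat, a log2 ratio of −0.86. TXN2, the mitochondrial form, had 44.6 and 53.8 FPKM, a log2 ratio of 0.27. All 3 reductases stayed within 2-fold. TXNRD1, cytosolic, had 25.05 and 25.7 FPKM, TXNRD2, mitochondrial, 8.43 and 9.49 FPKM, and TXNRD3 5.71 and 3.996 FPKM, with log2 ratios of 0.036, 0.15 and −0.42. TXN was 14.97 times as abundant as TXNRD1 in the normal and 8.03 times in the affected library, while the mitochondrial pair TXN2 and TXNRD2 stood at 5.29 and 5.67. TXNIP, which binds and inhibits thioredoxin, was level at 176.6 and 184.1 FPKM.

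The 9 thioredoxin-domain and TXNIP genes that reached 1 FPKM had log2 ratios between −0.91 and 0.84, and none of them passed 2-fold. TXNDC9 was lowest, with 22.7 FPKM in the normal cat against 11.7 in the affected cat. TXNDC16 had 23.2 and 42.4 FPKM and TXNDC11, a protein of the endoplasmic reticulum, 18.6 and 33.0 FPKM, with log2 ratios of 0.84 and 0.79. The span of TXNDC11 is also given for SNN, which had 34.1 and 65.5 FPKM. TXNDC17 had the highest mean of the 9 genes, at 184.3 and 177.7 FPKM, although TXNIP was above it in the affected library, at 184.1 FPKM. TXNDC12 had 72.2 and 58.1 FPKM and TXNL4A, a splicing factor with a thioredoxin fold, 50.8 and 35.3 FPKM. TXNL1, TXNDC15 and TXNIP were slightly higher, with log2 ratios from 0.060 to 0.27. TXNDC2 was near 0, at 0.0350 and 0.103 FPKM.

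Set apart by compartment, in groups made once the values were known, the 4 mitochondrial genes SOD2, PRDX3, TXN2 and TXNRD2 were all higher in the affected library. Their log2 ratios ran from 0.15 to 0.81, and their sum went from 192.7 to 258.6 FPKM. The 7 cytosolic genes SOD1, PRDX1, PRDX2, PRDX6, TXN, TXNRD1 and GPX1 had a median log2 ratio of −0.24, with 3 above and 4 below 0. No gene of either group passed 2-fold. The compartment groups do not hold every member, and ALDH3A1, GSTM3 and TKT, which passed 2-fold, were placed in none. The 7 genes of the secretory pathway, GPX7, GPX8, PRDX4, TXNDC11, TXNDC12, TXNDC15 and TXNDC16, had a median log2 ratio of −0.25, with 3 above and 4 below 0. Among them GPX8 was at least 2-fold lower, and their sum went from 336.8 to 283.5 FPKM. GPX3, which is secreted, was not placed in this group, and it alone went from 1583 to 5009 FPKM. Since the groups were chosen with the values known, these counts are a description only.

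The enzymes of glutathione synthesis and reduction were nearly level. GCLC, the catalytic subunit of glutamate-cysteine ligase and the rate-limiting step, had 12.6 FPKM in the normal cat against 16.7 in the affected cat. GCLM, its modifier subunit, had 14.2 and 13.1 FPKM. The ratio of GCLC to GCLM was 0.884 in the normal library against 1.28 in the affected one. GSS, which adds glycine to complete glutathione, had 16.1 and 16.2 FPKM. GSR, which reduces oxidized glutathione, had 12.5 and 13.8 FPKM. All 4 log2 ratios lay between −0.11 and 0.38, and the levels of all 4 genes lay between 12.5 and 16.7 FPKM in both cats.

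Glutathione transferases conjugate glutathione to reactive compounds, and their members went in both directions. GSTA4, which acts on the lipid aldehyde 4-hydroxynonenal, was the most abundant, at 135.8 FPKM in the normal cat against 153.5 in the affected cat. GSTM3 was lower in the affected cat by 3.07-fold, with 27.1 and 8.81 FPKM (log2 ratio −1.52). It lies on chromosome C1 from 92362602 to 92366774. Its neighbour GSTM4, a close relative, had 0.0255 and 0.109 FPKM, and how the counting divided reads between related genes is not given in the sources used here. MGST1, a membrane-bound transferase, came just under the 2-fold threshold in the other direction, with 23.0 and 45.5 FPKM (log2 ratio 0.95).

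The remaining transferases were closer to level. MGST3 had 60.5 FPKM in the normal cat against 47.8 in the affected cat, and MGST2 2.404 and 2.08 FPKM. GSTZ1, which also takes part in tyrosine breakdown, had 9.11 and 14.4 FPKM, a log2 ratio of 0.60. Its span is also given for TMED8 and POMT2. GSTO1 had 43.7 and 42.3 FPKM, while GSTO2, its neighbour on chromosome D2, had 0.627 and 0.632 FPKM. GSTO1 was therefore 69.6 and 66.9 times as abundant as GSTO2, the steadiest of the ratios between related genes computed here.

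The quinone reductases NQO1 and NQO2 were lower in the affected cat and the heme oxygenases were not. NQO1, a classical target of the transcription factor NRF2, had 19.7 FPKM in the normal cat against 12.3 in the affected cat (log2 ratio −0.64). NQO2 had 2.99 and 1.98 FPKM. HMOX1, the inducible heme oxygenase and also a classical target, had 8.14 and 8.29 FPKM. HMOX2, the constitutive form, had 21.2 and 31.6 FPKM, a log2 ratio of 0.55, at a span also given for NMRAL1. None of these genes passed 2-fold.

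ALDH3A1 had the lowest log2 ratio of all members. This aldehyde dehydrogenase is a major soluble protein of the mammalian cornea. It had 475.3 FPKM in the normal cat against 79.2 in the affected cat, 6.002-fold lower (log2 ratio −2.57). Only 0.804% of the 16676 loci had a lower ratio, as did 2.55% of the 432 loci with a mean within 2-fold of its own. The locus lies on chromosome E1 from 10301858 to 10310811. The next gene of the family on that chromosome, ALDH3A2, from 10331809 to 10375738, encodes the fatty aldehyde dehydrogenase and did not follow it, with 32.8 and 39.7 FPKM. ALDH3A1 was 14.5 times as abundant as ALDH3A2 in the normal and 1.99 times in the affected library. ALDH3B2 had 8.0 and 12.7 FPKM, at a span that is also given for rows that join ALDH3B1 with other genes.

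TKT, transketolase, links the pentose phosphate pathway to glycolysis and is likewise abundant in the cornea. It had 204.8 FPKM in the normal cat against 73.1 in the affected cat, 2.80-fold lower (log2 ratio −1.47). It lies on chromosome A2 from 21314719 to 21343559. Among 934 loci with a mean within 2-fold of that of TKT, 3.75% had a lower ratio.

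Most markers of the cornea were lower in the affected cat, and so were ALDH3A1 and TKT. Of 23 marker genes of corneal and conjunctival epithelium 20 are in the table and 17 reached 1 FPKM, of which 15 were at least 2-fold lower in the affected cat and none at least 2-fold higher. Their summed level was 675.1 FPKM in the normal cat against 42.3 in the affected cat, and none was listed at 0. KRT12, the keratin that defines corneal epithelium, had 299.1 and 3.27 FPKM, and KRT3 had 76.5 and 1.78 FPKM. A list of 5 corneal stroma genes, written after the values had been seen, had 4 genes in the table, of which 3 were at least 2-fold lower. KERA, keratocan, had 264.7 FPKM in the normal cat against 0.190 in the affected cat, and the list summed to 1735 and 357.4 FPKM. The affected library thus held 6.27% of the normal level of the epithelial markers, 16.7% of ALDH3A1 and 35.7% of TKT. In bulk tissue, fewer cells of a type and less RNA per cell cannot be told apart. The part of corneal cells in the values of ALDH3A1 and TKT was not tested.

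Markers of ciliary epithelium and photoreceptors mostly had higher values in the affected cat, as GPX3 did, and those of pigment cells mostly lower ones. All 10 ciliary epithelium genes on the list reached 1 FPKM, 5 of them were at least 2-fold higher and 1 at least 2-fold lower, and their sum was 2163 FPKM in the normal cat against 6139 in the affected cat. COL9A1, a chain of type IX collagen, had 403.5 and 1718 FPKM, a ratio of 4.26. The ratio was 3.91 for COL9A2 and 3.52 for OPTC, opticin. CA2, carbonic anhydrase, had 370.2 and 111.9 FPKM, and SLC4A4, a bicarbonate transporter, 43.0 and 32.6 FPKM. All 10 photoreceptor genes found were at least 2-fold higher, with a sum of 389.0 and 1847 FPKM. Of 14 lens genes 8 were at least 2-fold higher and 2 lower, with sums of 59805 and 54089 FPKM. CRYAA, a lens crystallin, had 22978 FPKM in the normal cat and was listed at 0 in the affected one, and without it the lens sums were 36827 and 54089 FPKM, a ratio of 1.47. Of 7 pigment cell genes, which mark iris and ciliary body among other tissues, 2 were at least 2-fold lower and none higher, with 6 of 7 below 0 and a median log2 ratio of −0.52. TYR, tyrosinase, had 182.7 and 26.8 FPKM and PMEL 493.0 and 134.4 FPKM. TYRP1, the most abundant in the normal cat, had 969.4 and 539.9 FPKM, and DCT went the other way, with 660.6 and 896.3 FPKM. The pigment cell list summed to 2371 and 1644 FPKM. The part of these tissues in the GPX3 value was not tested.

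**Figure D4:**
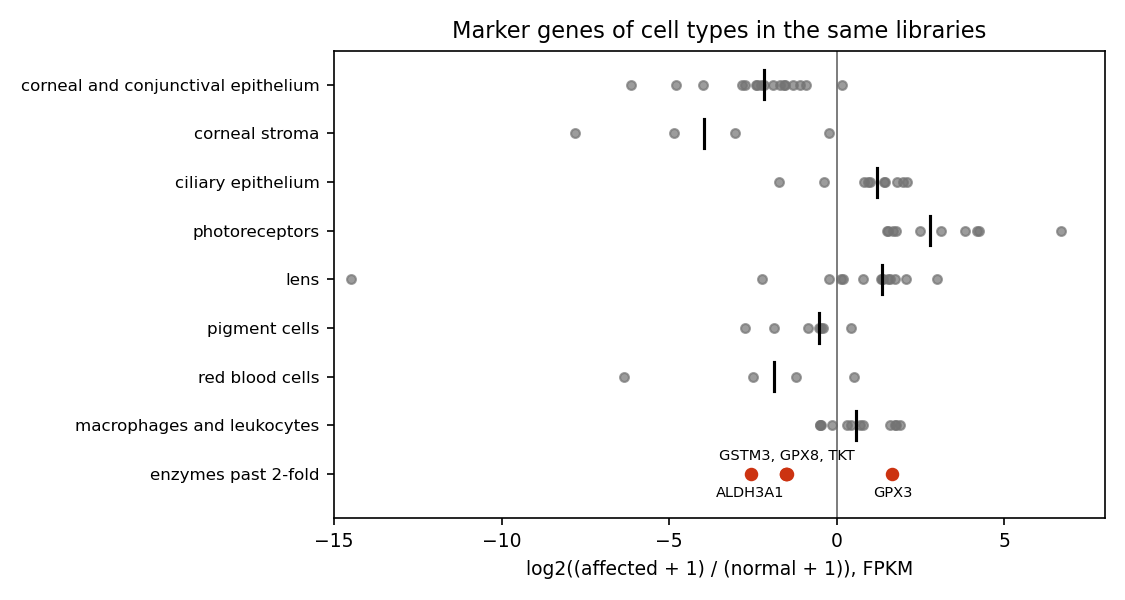
Log2 ratios of marker genes that reached 1 FPKM, by cell type, with the median of each list as a vertical bar, and the 5 enzymes past 2-fold in the bottom row. Markers of the cornea, pigment cells and red blood cells lie mostly to the left. Those of ciliary epithelium, photoreceptors, lens, and macrophages and leukocytes lie mostly to the right. ALDH3A1, GSTM3, GPX8 and TKT lie to the left and GPX3 to the right. Vascular endothelium and cell division, mostly lower, and trabecular meshwork, mostly higher, are not drawn.

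Red blood cells are rich in PRDX2, GPX1 and catalase, and most of their markers had lower values in the affected library. Of 14 names 10 are in the table and 4 reached 1 FPKM, 3 of which were at least 2-fold lower, with a sum over the 10 of 224.3 FPKM in the normal cat against 4.14 in the affected cat. HBA alone had 213.7 and 1.64 FPKM and made up nearly all of the sum in the normal library. EPB42, a protein of the red cell membrane skeleton, went the other way, with 0.573 and 1.27 FPKM, and it counts as at least 2-fold higher with a pseudocount of 0.1 FPKM. Of the 10 markers, 2 were listed at 0 in the affected library. Beside them PRDX2 was at 74.3% of its normal level, GPX1 at 73.1% and CAT at 92.8%. Other members were higher, with SOD1 at 139% and PRDX6 at 133%. Macrophages express HMOX1. Of 12 macrophage and leukocyte markers with at least 1 FPKM, 4 were at least 2-fold higher and none was at least 2-fold lower, while 4 lay below 0 on the log2 scale. The sum over all 14 in the table went from 212.4 to 475.4 FPKM, with C1QA, C1QB, C1QC and CD163 as the higher ones. PTPRC, the common leukocyte antigen, had 2.13 and 1.23 FPKM and AIF1 10.9 and 7.39 FPKM. HMOX1 was at 102% of its normal level. Of the other lists, vascular endothelium had 8 of 12 and cell division 12 of 14 genes at least 2-fold lower, and trabecular meshwork 4 of 7 higher and 1 lower. Fewer markers are left at a mean of at least 5 FPKM, where 4 of 6 cell division genes, 8 of 8 corneal epithelium genes and 1 of 1 red blood cell gene were at least 2-fold lower. At 4-fold, vascular endothelium had 3 lower, cell division 7 and corneal epithelium 9. Higher at 4-fold were 6 photoreceptor and 2 lens genes, 1 each of ciliary epithelium and trabecular meshwork, and 0 of macrophages and leukocytes. The part of these cell types in the values of the enzymes was not tested.

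Other genes of the same pathways were read from fixed lists. Of 31 regulators and partners of NRF2 and suppliers of NADPH, 24 are in the table and 23 reached 1 FPKM, of which 2 were at least 2-fold higher and 1 was at least 2-fold lower, with a median log2 ratio of 0.074. NFE2L2, which encodes NRF2, had 55.9 FPKM in the normal cat against 64.5 in the affected cat, and KEAP1, its repressor, 25.5 and 26.9 FPKM. SQSTM1, an autophagy receptor that binds KEAP1, had 53.8 and 148.7 FPKM (log2 ratio 1.45), and MAFK, a small partner of NRF2, 11.0 and 23.8 FPKM (log2 ratio 1.05). The ferritin subunits FTL and FTH1, which store iron, had log2 ratios of 0.62 each, at 2040 and 3139 FPKM for FTL. AKR1B1, aldose reductase, was the one past 2-fold lower, with 506.5 and 87.7 FPKM (log2 ratio −2.52), close to the log2 ratio of ALDH3A1. SLC7A11, which imports cystine for glutathione synthesis, had 6.22 and 2.83 FPKM (log2 ratio −0.91). The count of lower genes was 2 with a pseudocount of 0.1 FPKM and also with both libraries rescaled to the same sum.

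In the glutathione cycle outside the members all 22 genes found reached 1 FPKM, with 2 at least 2-fold higher, 2 at least 2-fold lower and a median of 0.16. GLRX, the cytosolic glutaredoxin, had 17.9 FPKM in the normal cat against 5.24 in the affected cat (log2 ratio −1.60). GGT6 had 2.22 and 0.168 FPKM. SLC1A5, a glutamine transporter, had 10.1 and 23.2 FPKM, and GGT7 5.94 and 13.5 FPKM. GLO1, which clears methylglyoxal with glutathione, had 146.8 and 123.8 FPKM. The other glutaredoxins found stayed within 2-fold. GLRX2 and GLRX5, both mitochondrial, had 10.8 and 10.9 FPKM and 108.7 and 135.5 FPKM, and GLRX3 had 55.6 and 50.4 FPKM. SLC3A2, a subunit of amino acid transporters that include the cystine importer, had the highest mean of the list, at 177.5 and 266.7 FPKM.

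Selenoproteins need their own machinery for selenocysteine. Of 29 names on that list, which holds older and newer symbols of the same genes, 5 are in the table, and none passed 2-fold. SEPHS2, which makes the selenium donor, had 22.9 FPKM in the normal cat against 33.2 in the affected cat, and PSTK had 8.84 and 6.80 FPKM. The 6 members known as selenoproteins across mammals, GPX1, GPX3, GPX4 and TXNRD1 to TXNRD3, had log2 ratios from −0.45 to 1.66, and GPX3 was the one past 2-fold.

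Among 18 genes of redox repair and metal handling with at least 1 FPKM, 2 were at least 2-fold higher and 3 lower. TF, transferrin, had 12.9 FPKM in the normal cat against 88.1 in the affected cat, and PON2, an intracellular lactonase, 38.6 and 111.4 FPKM. SLC40A1, ferroportin, which exports iron, had 40.05 and 7.64 FPKM, and ATOX1, a copper chaperone, 525.9 and 219.7 FPKM. NUDT1, which removes oxidized nucleotides, had 20.1 and 7.43 FPKM. CCS, the copper chaperone of SOD1, had 25.7 and 48.2 FPKM, a log2 ratio of 0.88 beside the 0.47 of SOD1. Of 16 genes for enzymes that make superoxide or peroxide, MAOA was at least 2-fold higher, with 12.1 and 28.1 FPKM, and MAOB came just under that threshold, with 15.5 and 31.4 FPKM. None was at least 2-fold lower with the pseudocount of 1, but NOX4, an NADPH oxidase, had 2.34 and 0.725 FPKM (log2 ratio −0.95). With a pseudocount of 0.1 FPKM the counts were 2 higher and 1 lower, and with both libraries rescaled to the same sum 1 was lower. CYBA, a subunit of NADPH oxidases, was the most abundant of them, at 93.8 and 88.6 FPKM.

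Some names of these families stand outside the 52 loci. Rows that join several names were not divided between their genes. The row of GSTK1 and TMEM139 had 89.1 FPKM in the normal cat against 72.9 in the affected cat, that of GSTT1 with CABIN1 55.4 and 79.5 FPKM, and that of ALDH3B1 with NDUFS8 70.6 and 76.3 FPKM. SOD3, PRDX5, GPX2, GSTP1, TXNDC5, TXNDC8 and TXNL4B, which a RefSeq list of cat genes also holds, were not analysed here.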

How the data were processed

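RNA-seq was analysed from 2 libraries, 1 normal and 1 affected, grouped by the disease state in the labels. The deposited values are FPKM per locus, which the authors calculated with Cufflinks 2.1.1 after alignment to felCat5 with TopHat 2.0.9 and Ensembl predictions. The scaling between the libraries is not given in the sources used here, and the table sums to 649113 (normal) and 672893 (affected). With values that are not counts and 1 library per condition, no count model and no test was used.

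Log2 ratios used a pseudocount of 1 FPKM and loci that reached 1 FPKM in either library. For a repeated name the row with the higher mean was taken, and names were matched exactly. No member name was repeated. For 13 of the 52 members the span is also given for another row. Starts are printed counting from 1. Of the 52 members 50 carry a symbol in the RefSeq list of a later cat assembly, which gave names only. The scaled fragment totals were recovered by a search for the scale at which low values at unnamed loci become whole fragments. Log2 ratios and the search were tested on simulated data.

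Members and lists were chosen with earlier results of these data known. Named genes were all members and, of each other list, some of up to 3 with the highest log2 ratio, up to 3 with the lowest and 2 with the highest mean. NFE2L2, KEAP1, GLRX2, GLRX3, GLRX5 and CD163 were added after their values were seen, as was the corneal stroma list. Promoter and protein sequences were not analysed here. Alternatives were the pseudocount, rescaling, minimum, fold threshold and choice of rows. Python 3.11.15, numpy 2.4.6, pandas 2.3.3, scipy 1.17.1 and matplotlib 3.10.9 were used.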

Additional observations from a re-analysis of the deposited data

How the results depend on the processing

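The counts of 1 member at least 2-fold higher and 4 lower were unchanged with a pseudocount of 0.1, both rescalings, no minimum, a mean of at least 5 FPKM, sums of rows, no thioredoxin-domain genes and no loci under 200 bases. At a 4-fold threshold they were 0 and 1. Without members whose span is given for another row, chosen after the data were examined, they were 1 and 3. The median log2 ratio of the members ranged from −0.045 to 0.030 and their mean was −0.077, so its sign is not fixed. It was −0.033 with each library scaled to a total of 1000000 and −0.0050 with the affected library rescaled. The ratio of the summed FPKM was 1.46 after rescaling, 0.827 without GPX3 and 0.96 without GPX3, ALDH3A1 and TKT, both chosen after the data were examined, since GPX3 makes most of the sum in the affected library. Over all loci, 1358 were at least 2-fold higher and 1459 lower. These counts became 815 and 691 for loci that averaged 5 FPKM or more, 280 and 298 at 4-fold, 1992 and 2173 with a pseudocount of 0.1 FPKM, and 1568 and 1946 of 18351 loci after rescaling to the same sum, where 8.54% were higher and 10.6% lower. Of 45 counts and medians of the marker and pathway lists, 10 moved (counts by over 1.5 times, medians by 0.1 or more) with a pseudocount of 0.1 FPKM, 16 at 4-fold and 10 for genes that averaged 5 FPKM or more. No log2 ratio of a member past 2-fold changed sign. TXNRD1, GSS, HMOX1 and GSTO2, all near 0, changed sign with both libraries rescaled to the same sum. No paired analysis was possible because there is 1 library of each condition. Motifs in promoters, planned at first, were not run. Counting limits GPX5, GSTM4 and TXNDC2, whose values correspond to under 10 fragments per kilobase at the scaled totals.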
